A study of Saccharomyces cerevisiae with 12 samples.

Results

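The general transcription factors and the Mediator complex of budding yeast (Saccharomyces cerevisiae) are described here as 55 genes, followed through rapid depletion of the BET proteins Bdf1 and Bdf2. The members were listed by name for TBP, the TAFs, TFIIA, TFIIB, TFIIE, TFIIF, TFIIH and Mediator. All 55 were found among the 6465 S. cerevisiae gene intervals of the deposited tables. They fall into 14 groups: TBP (SPT15, YER148W), 8 TAFs found in TFIID alone, 5 TAFs shared by TFIID and SAGA, TAF14, TFIIA (2 genes), TFIIB (SUA7, YPR086W), TFIIE (2), TFIIF (2), the TFIIH core (6) and kinase module (3), and the Mediator head (8), middle (8), tail (4) and Cdk8 module (4).

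The data were 12 SLAM-seq libraries in 4 groups of 3 biological replicates (A, B and C). The ET strain (RDY388) was given IAA, an auxin, or the solvent DMSO for 25 min, and the control strain (RDY73) was treated in the same way, before RNA was labelled with 4-thiouracil for 4 min. Both strains, the control included, carried pGPD1-OsTIR1:HIS3, which supplies the auxin receptor, and degron tags on both BET genes (BDF2-3xV5-mAID::KanMX and BDF1-3xV5-mAID::URA3), so that IAA causes loss of Bdf1 and Bdf2. The ET strain carried in addition pJR15:TRP1, from which the ET domain of Bdf1 is expressed under the strong GPM1 promoter. No strain without degron tags is among these libraries, and each genotype is represented by 1 strain.

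General transcription factors assemble with RNA polymerase II at promoters. TBP binds the TATA element or its equivalent, TFIIA and TFIIB hold it there, TFIID brings TBP and its TAFs to the promoter, and TFIIE, TFIIF and TFIIH complete the assembly and open the DNA. Mediator bridges activators and the polymerase, and in yeast Bdf1 binds acetylated histones and contacts TFIID through Taf7.

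In SLAM-seq, 4-thiouracil in new RNA is read as T>C conversions, and a T>C read is one with at least 2 of them. Levels are given below as RPM, the reads for each 1000000 S. cerevisiae reads of the library, of T>C reads (T>C RPM) or of all reads (RPM). Totals ranged over the libraries from 6279282 to 11395597 S. cerevisiae reads and from 90321 to 330857 T>C reads. The members are modestly expressed: their median count was 7 T>C reads a library in the ET strain with IAA, against 26 with DMSO, and 4 in the control strain with IAA, against 24 with DMSO. Of the 55 members, 36 had a T>C read in every library and could be tested, and 19 had at least 1 zero, 18 of them in a control IAA library. This filter therefore left out members that were low after depletion. Intervals reach 250 bp past each gene's 3′ end, and 13 members overlap another interval on the same strand, so that reads can be shared. Among those described below they are TAF7, TAF14, TFB2, KIN28, SRB4, SRB6, RGR1, PGD1 and SRB8.

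Promoter sequences of 4 members are shown, chosen among the members with a T>C read in every library. Within that set MED11 and SRB7 had the largest fall of T>C reads in the control strain. SUA7 and SRB8 had the smallest among those whose fall passed the test. Members with a zero were not part of this choice, and some fell further on few reads, such as CSE2 (37.5-fold) and TAF13 (31.8-fold). Each sequence is read from the R64 genome on the strand of the gene, from 250 to 51 bases before the start codon, 5′ to 3′. Capitals mark a match, on either strand and counting overlapping matches together, to a TATA box (TATAAAAA, TATAAAAG, TATAAATA, TATAAATG, TATATAAA, TATATAAG, TATATATA or TATATATG).
MED11 (YMR112C), chrXIII:494546-494745, minus strand: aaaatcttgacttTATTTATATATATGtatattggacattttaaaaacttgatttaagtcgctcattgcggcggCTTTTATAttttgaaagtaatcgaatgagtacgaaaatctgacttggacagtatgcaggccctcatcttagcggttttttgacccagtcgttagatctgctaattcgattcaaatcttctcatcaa
SRB7 (YDR308C), chrIV:1078500-1078699, minus strand: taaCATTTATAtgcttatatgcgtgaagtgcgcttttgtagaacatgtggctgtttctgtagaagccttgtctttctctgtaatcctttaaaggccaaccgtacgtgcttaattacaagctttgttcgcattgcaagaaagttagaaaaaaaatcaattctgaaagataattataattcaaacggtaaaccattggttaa
SUA7 (YPR086W), chrXVI:709851-710050, plus strand: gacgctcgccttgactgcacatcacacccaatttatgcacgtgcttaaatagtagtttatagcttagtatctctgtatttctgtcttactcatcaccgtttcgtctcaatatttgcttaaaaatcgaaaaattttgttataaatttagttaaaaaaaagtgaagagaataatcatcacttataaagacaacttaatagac
SRB8 (YCR081W), chrIII:254121-254320, plus strand: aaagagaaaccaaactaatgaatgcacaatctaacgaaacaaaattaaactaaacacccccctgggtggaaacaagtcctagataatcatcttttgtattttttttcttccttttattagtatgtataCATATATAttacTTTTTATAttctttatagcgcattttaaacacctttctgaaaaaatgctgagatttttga

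A TATA match lay in the windows of MED11, SRB7 and SRB8, and none lay in that of SUA7. Over all 55 members 14 windows held one (25.5%), against 32.2% of the 5993 protein-coding genes with a window of the same 200 bases. The Reb1 motif TTACCCG, searched on both strands, lay in 10 member windows (18.2%), against 6.99% of all windows, and in none of the 4 shown. These are matches of letters only.

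Summed over each group of genes, T>C RPM was lower in IAA than in DMSO libraries in all 14 groups and in both strains, with no overlap between the libraries, when scaled to S. cerevisiae reads. Taken singly, 54 of the 55 members in the ET strain and 55 in the control strain were lower without overlap. Among all single intervals with a T>C read, this held for 69.39% in the ET strain and 69.55% in the control strain. All 55 members together gave 61.4 ± 2.82 T>C RPM in the ET strain with IAA and 199 ± 28.4 with DMSO (SD, n = 3 each), a 3.25-fold fall. The control strain gave 39.4 ± 4.94 with IAA and 170 ± 11.4 with DMSO, a 4.30-fold fall. On the log2 scale the members' sums changed by -1.70 and -2.11. The median gene among the 3677 with a T>C read in every library changed by -1.40 and -1.61. These values are not like for like: the sums pool all 55 members, 19 of which had a zero. With such genes allowed, the median of all genes was lower in both strains (-1.60 in the ET strain) and nearer to the members' sums. Scaled by median of ratios, a factor that sets the typical gene's change in all reads to about 0, these sums still fell, by 0.77 and 0.96 on the log2 scale. Under that scaling the sums of TBP and TFIIB lay at 0, with log2 ratios of -0.03 and -0.02 in the ET strain and -0.02 and 0.02 in the control strain. Sums carry no test.

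**Figure D1:**
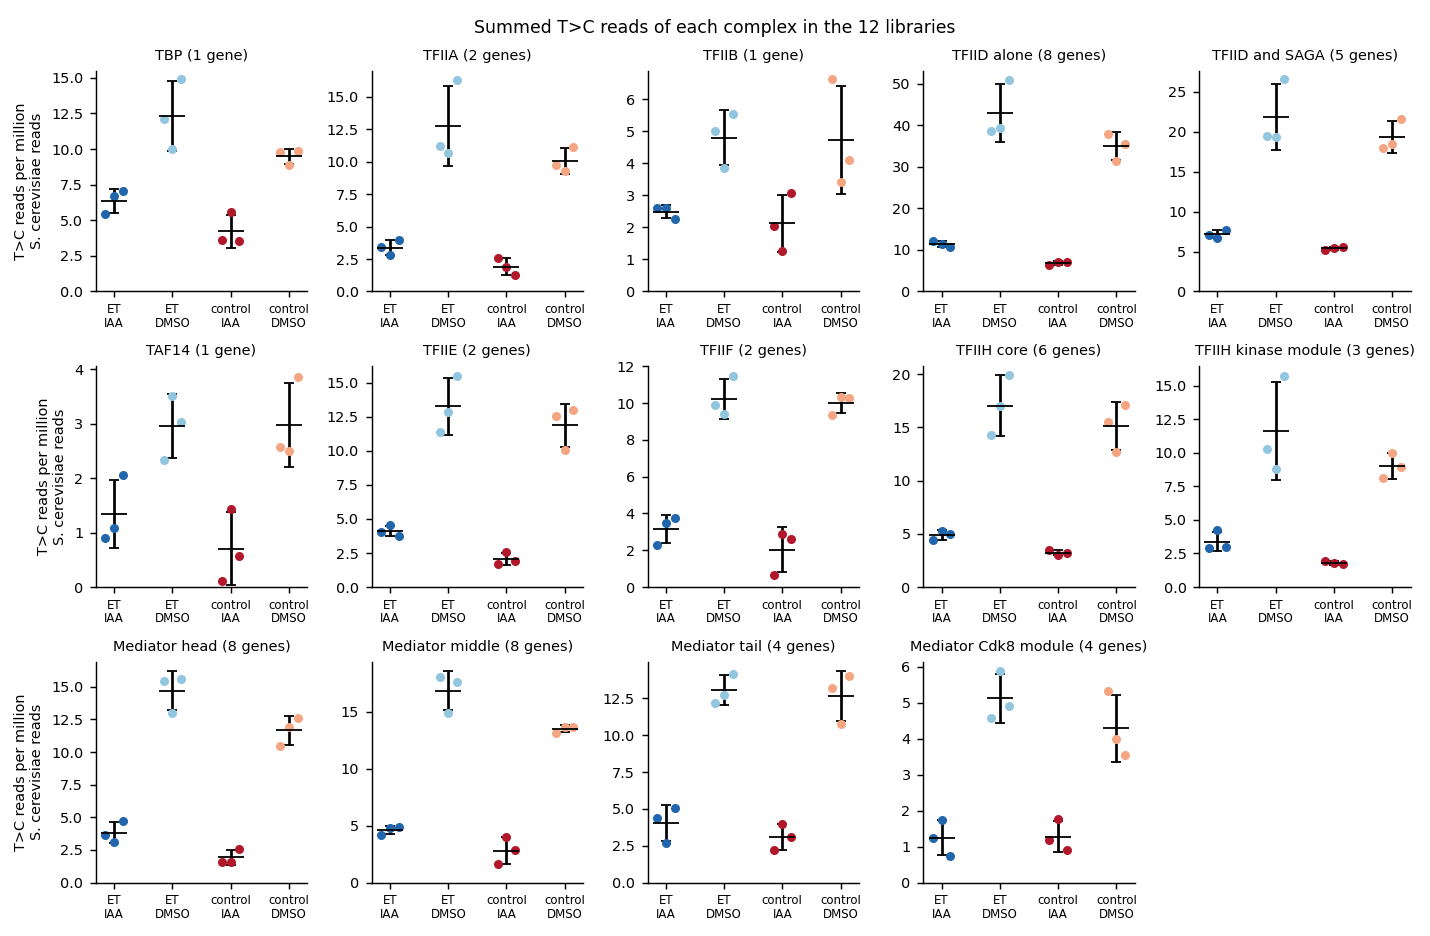
T>C reads for each 1000000 S. cerevisiae reads (y axis, linear, from 0), summed over the genes of each group, for the 4 groups of libraries (x axis). Points are the libraries and bars the mean and SD (n = 3); in all 14 panels the IAA libraries of a strain lie below its DMSO libraries, although with median of ratios scaling the TBP and TFIIB sums show log2 ratios between -0.03 and 0.02.

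The steepest fall among the sums in the control strain was that of the Mediator head, the module that contacts RNA polymerase II, with 1.93 ± 0.582 T>C RPM with IAA and 11.7 ± 1.09 with DMSO (6.04-fold). TFIIE fell 5.77-fold (2.06 ± 0.436 with IAA and 11.9 ± 1.58 with DMSO) and TFIIA 5.28-fold (1.91 ± 0.658 and 10.1 ± 0.986). The TAFs of TFIID alone fell 5.13-fold, to 6.81 ± 0.452 with IAA, against 34.9 ± 3.37 with DMSO. The 5 TAFs shared with SAGA, a coactivator complex that also delivers TBP, fell 3.58-fold. TBP and TFIIB fell least, 2.24-fold and 2.22-fold. The Cdk8 module, a kinase module that binds Mediator reversibly, fell 3.35-fold. Its sum with IAA was 1.24 ± 0.489 in the ET strain and 1.28 ± 0.432 in the control strain. The Mediator head had 3.81 ± 0.793 in the ET strain and 1.93 ± 0.582 in the control strain. This order did not carry over to the ET strain. There the Cdk8 module had the steepest fall among the sums (4.13-fold), ahead of the Mediator head (3.86-fold). On the log2 scale these falls were -2.045 and -1.948, with replicate SDs of 0.45 and 0.23. The Cdk8 sums with IAA rest on 8 to 16 T>C reads a library in the ET strain and 8 to 11 in the control strain.

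Gene by gene, depletion in the control strain lowered T>C reads of 35 of the 36 tested members and raised none (edgeR, adjusted p under 0.05 over all 3677 genes tested), while 79.7% of all tested genes were lower. The median log2 change (IAA over DMSO) was -2.20 over the 36 members, against -1.61 over all tested genes, and 29 of the 36 lay below the median of all. The 1 exception was SSL1, a TFIIH core subunit (-0.81 ± 0.55 SE, adjusted p = 0.17), with a mean of 8.17 T>C reads a library. With zeros allowed, 53 of 54 members were lower, against 80.7% of 5302 genes, the members' median of -2.31 lay below that of all genes by 0.36, and 38 of the 54 lay below the median of all.

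Depletion in the ET strain lowered all 36 tested members (edgeR), as it did 79.6% of all genes, with a median log2 change of -1.69, against -1.40 over all genes. With zeros allowed all 54 were lower, against 79.2%, with medians of -1.78 over the members and -1.60 over all genes. Among the 36 members without a zero, the largest falls with on average 10 or more T>C reads were those of TAF4, SRB6 and MED11. Of the 36 members, 29 had a smaller fall in the ET than in the control strain, as had 67.4% of all tested genes. Across the 36 members the changes of the 2 strains, which share no library, correlated with a Pearson r of 0.54 and a Spearman rho of 0.55, against 0.76 and 0.76 over all 3677 genes. Genes are not independent replicates, and counts of members are low.

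The size of the fall depends on the scaling. The 100 intervals with most reads took 56.8% ± 0.888 of all reads in the ET strain with IAA and 49% ± 1.47 with DMSO, and 58.9% ± 0.792 in the control strain with IAA and 49.6% ± 0.831 with DMSO. Scaled to the S. pombe spike-in, the control-strain median over all genes was -1.78 and 35 of 36 members were lower. Median of ratios put it at -0.46 and left 18 of 36 members lower in each strain, against 30.2% of all genes in the ET strain and 28.7% in the control strain. TMM put it at -0.11 and left 2 members lower in the ET strain, against 10.6%, and 10 in the control strain, against 14.9%. The members' median lay below that of all genes under each of these scalings, by 0.29 to 0.31 on the log2 scale in the ET strain and by 0.58 to 0.62 in the control strain. With zeros allowed these gaps narrowed to 0.19 in the ET strain and 0.36 in the control strain.

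**Figure D2:**
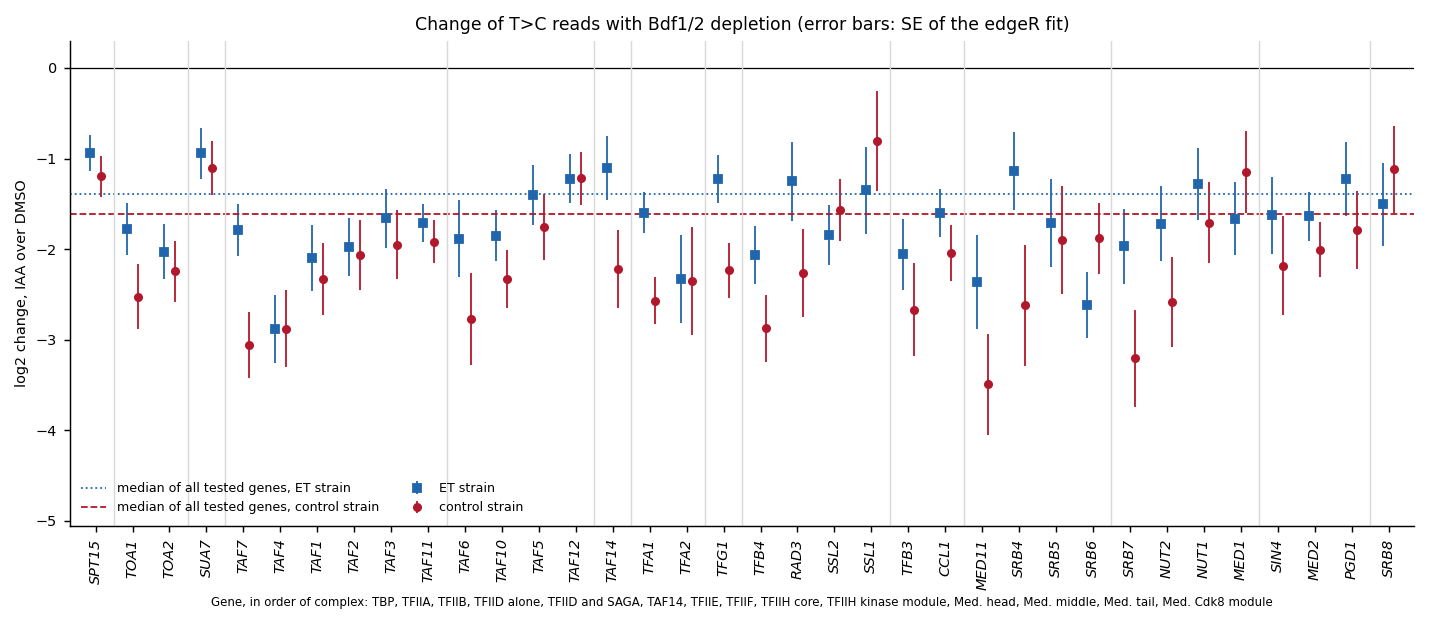
Log2 change of T>C reads, IAA over DMSO (y axis), for the 36 tested members (x axis, in order of complex) in the ET strain (squares) and the control strain (circles), with the SE of the fit. Dotted and dashed lines mark the medians of all tested genes, -1.40 and -1.61. SPT15 and SUA7 lie above both lines in both strains. Under TMM they are among 9 members above 0 in the ET strain and 6 in the control strain. The medians of all genes are then -0.09 and -0.11.

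TBP and TFIIB were the factors with the smallest summed change. SPT15, which encodes TBP, had 5.43, 6.70 and 7.02 T>C RPM in the ET IAA libraries, against 12.1, 10.0 and 14.9 in the ET DMSO libraries. SPT15 in the control strain had 3.63, 5.57 and 3.51 with IAA and 9.78, 8.88 and 9.83 with DMSO. IAA libraries were lower than DMSO libraries without overlap in either strain. The log2 change was -0.94 ± 0.20 (adjusted p = 8.6e-06) in the ET strain and -1.20 ± 0.23 (adjusted p = 4.3e-07) in the control strain (edgeR), which turned to 0.38 and 0.30 under TMM.

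SUA7, which encodes TFIIB, had 2.60, 2.59 and 2.25 T>C RPM in the ET IAA libraries, against 4.99, 3.86 and 5.53 with DMSO. Its control-strain libraries had 2.03, 1.27 and 3.06 with IAA and 6.62, 3.42 and 4.09 with DMSO. Both strains were again lower with IAA without overlap. For SUA7 this gave a log2 change of -0.94 ± 0.28 (edgeR, adjusted p = 0.0014) in the ET strain and -1.10 ± 0.30 (adjusted p = 0.0004) in the control strain, and it turned to 0.37 and 0.41 under TMM and, in the control strain, to 0.05 under median of ratios. Relative to the median of all tested genes, SPT15 lay 0.41 and SUA7 0.50 higher in the control strain, a difference between them smaller than their standard errors.

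TFIIA, which stabilises TBP on DNA, fell further than TBP. TOA1, its large subunit, had 2.04, 1.73 and 1.97 T>C RPM in the ET IAA libraries, against 5.40, 6.23 and 8.13 with DMSO. TOA1 in the control strain had 0.961, 1.27 and 0.340 with IAA and 4.25, 5.18 and 4.97 with DMSO. All ET IAA libraries stood above all control IAA libraries and below all DMSO libraries. The log2 change was -1.78 ± 0.28 (edgeR, adjusted p = 4.8e-09) in the ET strain and -2.53 ± 0.36 (adjusted p = 2.5e-11) in the control strain, and TOA2, the small subunit, had -2.03 and -2.25.

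All 6 tested TAFs of TFIID alone were lower in both strains, against 79.6% and 79.7% of all genes in the ET and control strains, with log2 changes of -2.88 to -1.66 in the ET strain and -3.06 to -1.92 in the control strain. TAF7, whose product binds Bdf1, had 2.15, 2.16 and 1.41 T>C RPM in the ET IAA libraries, against 7.23, 5.09 and 7.40 with DMSO. TAF7 in the control strain had 0.427, 0.637 and 0.906 with IAA and 5.53, 4.63 and 6.52 with DMSO. The groups separated without overlap except between the DMSO groups of the strains. For TAF7 this gave a log2 change of -1.79 ± 0.28 (edgeR, adjusted p = 3.7e-09) in the ET strain and -3.06 ± 0.37 (adjusted p = 4.5e-15) in the control strain.

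TAF4, a histone-fold TAF of the TFIID core, had 0.679, 0.540 and 0.656 T>C RPM in the ET IAA libraries, against 3.87, 4.39 and 5.84 with DMSO. Control libraries held 0.213, 0.637 and 0.680 with IAA and 3.85, 3.61 and 3.65 with DMSO. The IAA libraries of the strains overlapped for TAF4, and its log2 change of -2.88 ± 0.37 (edgeR, adjusted p = 7e-13) was the lowest of the tested members in the ET strain. It was -2.88 ± 0.42 (adjusted p = 1.1e-10) in the control strain.

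TAF1, the TFIID subunit that contacts Taf7, had 2.04, 0.432 and 0.281 T>C RPM in the ET IAA libraries, against 2.95, 3.95 and 4.48 with DMSO. Replicate A stood well above the other IAA libraries of that strain, with 18 T>C reads against 4 and 3. TAF1 in the control strain had 0.534, 0.637 and 0.906 with IAA and 4.34, 2.87 and 3.42 with DMSO. The log2 changes were -2.10 ± 0.37 (edgeR, adjusted p = 6.3e-08) in the ET strain and -2.33 ± 0.40 (adjusted p = 3.4e-08) in the control strain.

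Among the TAFs shared with SAGA, 4 of 5 were tested and all 4 were lower in both strains, against the same 79.6% and 79.7% of all genes. In the control strain TAF6 had the lowest log2 change (-2.77 ± 0.51) and TAF12 the highest (-1.22 ± 0.29, above 0 under TMM). TAF14, whose YEATS-domain product is also part of several chromatin complexes, had -1.10 ± 0.35 in the ET strain, above 0 under TMM, and -2.22 ± 0.43 in the control strain.

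TFIIE recruits and regulates TFIIH. TFA1, its large subunit, was among the better covered members, with 3.73, 4.11 and 3.37 T>C RPM in the ET IAA libraries, against 9.58, 10.7 and 13.7 with DMSO. TFA1 in the control strain had 1.49, 2.39 and 1.59 with IAA and 11.3, 8.88 and 11.6 with DMSO. The ET IAA libraries lay between the control IAA libraries and all DMSO libraries. The log2 change was -1.60 ± 0.22 (edgeR, adjusted p = 2.6e-11) in the ET strain and -2.57 ± 0.26 (adjusted p = 1e-19) in the control strain.

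TFG1, the largest subunit of TFIIF, which escorts the polymerase to the promoter, had 1.81, 2.81 and 3.18 T>C RPM in the ET IAA libraries, against 6.32, 4.91 and 7.30 with DMSO. Its control libraries had 0.640, 2.23 and 1.59 with IAA and 5.63, 7.03 and 7.40 with DMSO. The IAA libraries of the strains overlapped. For TFG1 this gave a log2 change of -1.22 ± 0.27 (edgeR, adjusted p = 1.3e-05) in the ET strain, 0.09 under TMM, and -2.24 ± 0.31 (adjusted p = 5.6e-12) in the control strain.

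RAD3, the TFIIH helicase that also serves nucleotide excision repair, had 0.679, 0.540 and 0.937 T>C RPM in the ET IAA libraries, against 1.83, 1.84 and 1.56 with DMSO. RAD3 in the control strain had 0.640, 0.319 and 0.340 with IAA and 2.27, 2.22 and 2.10 with DMSO. IAA libraries were lower in both strains without overlap. The log2 changes were -1.25 ± 0.44 in the ET strain, 0.03 under TMM, and -2.26 ± 0.48 in the control strain.

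KIN28, the kinase of TFIIH that phosphorylates the polymerase's C-terminal domain, had 0.113, 0.324 and 0.0937 T>C RPM in the ET IAA libraries, against 0.713, 0.351 and 1.56 with DMSO. It had only 1 T>C read in the 3 control IAA libraries together, against 29 with DMSO, a level 23.7-fold lower (95% exact interval 3.92 to 967, for counting error only). Of its partners, the cyclin CCL1 had a log2 change of -2.04 ± 0.31 and the assembly factor TFB3 -2.67 ± 0.51 in the control strain. The other TFIIH core subunits tested with RAD3 and SSL1 were TFB4 (-2.88 ± 0.37) and the translocase SSL2 (-1.57 ± 0.35).

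Among Mediator members, 12 of 24 were tested and all 12 were lower in both strains, against 79.6% and 79.7% of all genes in the ET and control strains. MED11, a small head subunit, had 0.113, 0.432 and 0.375 T>C RPM in the ET IAA libraries, against 2.04, 1.58 and 1.36 with DMSO. MED11 in the control strain had 0.107, 0.478 and 0.113 with IAA, from 1, 3 and 1 reads, and 2.37, 2.87 and 2.10 with DMSO, from 24, 31 and 19 reads. IAA libraries were lower without overlap, on few reads. The log2 change was -2.36 ± 0.52 (edgeR, adjusted p = 1.5e-05) in the ET strain and -3.49 ± 0.56 (adjusted p = 2.9e-09), the lowest of the tested members, in the control strain.

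SRB7 (Med21), which joins the middle module to the rest, had 0.453, 0.972 and 0.562 T>C RPM in the ET IAA libraries, against 2.24, 2.81 and 2.81 with DMSO. SRB7 in the control strain had 0.213, 0.159 and 0.340 with IAA and 2.07, 2.78 and 2.21 with DMSO. The ET IAA libraries all stood above the control IAA libraries. The log2 changes were -1.97 ± 0.42 (edgeR, adjusted p = 6.8e-06) in the ET strain and -3.20 ± 0.54 (adjusted p = 1.4e-08) in the control strain.

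SRB6 (Med22), a head subunit, had 0.566, 0.432 and 1.22 T>C RPM in the ET IAA libraries, against 4.89, 4.30 and 5.00 with DMSO. SRB6 in the control strain had 0.320, 0.637 and 1.47 with IAA and 2.96, 2.87 and 3.31 with DMSO. The IAA libraries of the strains overlapped, and the ET DMSO libraries all stood above the control DMSO libraries, a difference that was not called. The log2 changes were -2.62 ± 0.36 in the ET strain and -1.88 ± 0.39 in the control strain.

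SRB4 (Med17), the scaffold of the head that is needed for most polymerase II transcription, had 1.13, 0.432 and 0.843 T>C RPM in the ET IAA libraries, against 1.83, 2.11 and 1.36 with DMSO. SRB4 in the control strain had 0.213, 0.159 and 0.113 with IAA and 0.987, 0.833 and 1.44 with DMSO. The control IAA values stand for 2, 1 and 1 reads and lie below all other libraries. The log2 changes were -1.14 ± 0.43 (edgeR, adjusted p = 0.012) in the ET strain, 0.15 under TMM, and -2.62 ± 0.67 (adjusted p = 0.00018) in the control strain.

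RGR1, GAL11 and SSN3 had a zero in some library and were fitted with zeros allowed. RGR1 (Med14), the backbone that links head, middle and tail, had 0.340, 0.540 and 0.375 T>C RPM in the ET IAA libraries, against 1.12, 1.49 and 1.56 with DMSO. RGR1 in the control strain had 0.534, 0.319 and 0 with IAA and 2.27, 0.740 and 0.994 with DMSO. IAA libraries were lower without overlap, with log2 changes of -1.71 ± 0.56 in the ET strain and -2.17 ± 0.64 in the control strain. GAL11 (Med15), the tail subunit that activators such as Gcn4 and Gal4 bind, had 0.226, 0.108 and 0.656 in the ET IAA libraries, against 2.14, 1.32 and 2.61 with DMSO. Its control libraries had 0, 0.796 and 0.566 with IAA and 2.27, 2.13 and 2.65 with DMSO. These did not overlap either, with log2 changes of -2.49 ± 0.52 and -2.46 ± 0.51.

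SSN3, the Cdk8 kinase itself, had 0.340, 0.756 and 0.187 T>C RPM in the ET IAA libraries, against 1.73, 2.37 and 1.98 with DMSO. SSN3 in the control strain had 0.534, 0.796 and 0 with IAA and 2.07, 1.67 and 0.884 with DMSO. IAA libraries were lower without overlap, with log2 changes of -2.25 ± 0.51 in the ET strain and -1.88 ± 0.55 in the control strain. SRB8 (Med12), another subunit of that module, had one of the smallest falls in the control strain (-1.12 ± 0.48, edgeR, adjusted p = 0.026), which turned to 0.02 under median of ratios and 0.37 under TMM. SSN8, the cyclin of the module, had 0 T>C reads in the 3 ET IAA libraries, against 14 with DMSO, and 3 in the control strain with IAA, against 10 with DMSO. For the fall of SSN8 in the ET strain, the exact 95% interval, which counts the error of both groups, has a lower bound of 3.1-fold.

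The 19 members with a zero include ratios that are large but rest on few reads. TAF13, a histone-fold TAF, had 4, 9 and 4 T>C reads in the ET IAA libraries, against 26, 23 and 41 with DMSO. It had 1, 0 and 1 in the control IAA libraries, against 23, 30 and 25 with DMSO, a level 31.8-fold lower (95% exact interval 8.52 to 267). CSE2 (Med9), of the Mediator middle, was seen in every ET IAA library, with 2, 3 and 7 reads, against 22, 17 and 18 with DMSO. It had 0, 0 and 1 in the control IAA libraries, against 9, 27 and 10 with DMSO, a level 37.5-fold lower (6.41 to 1510).

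**Figure D3:**
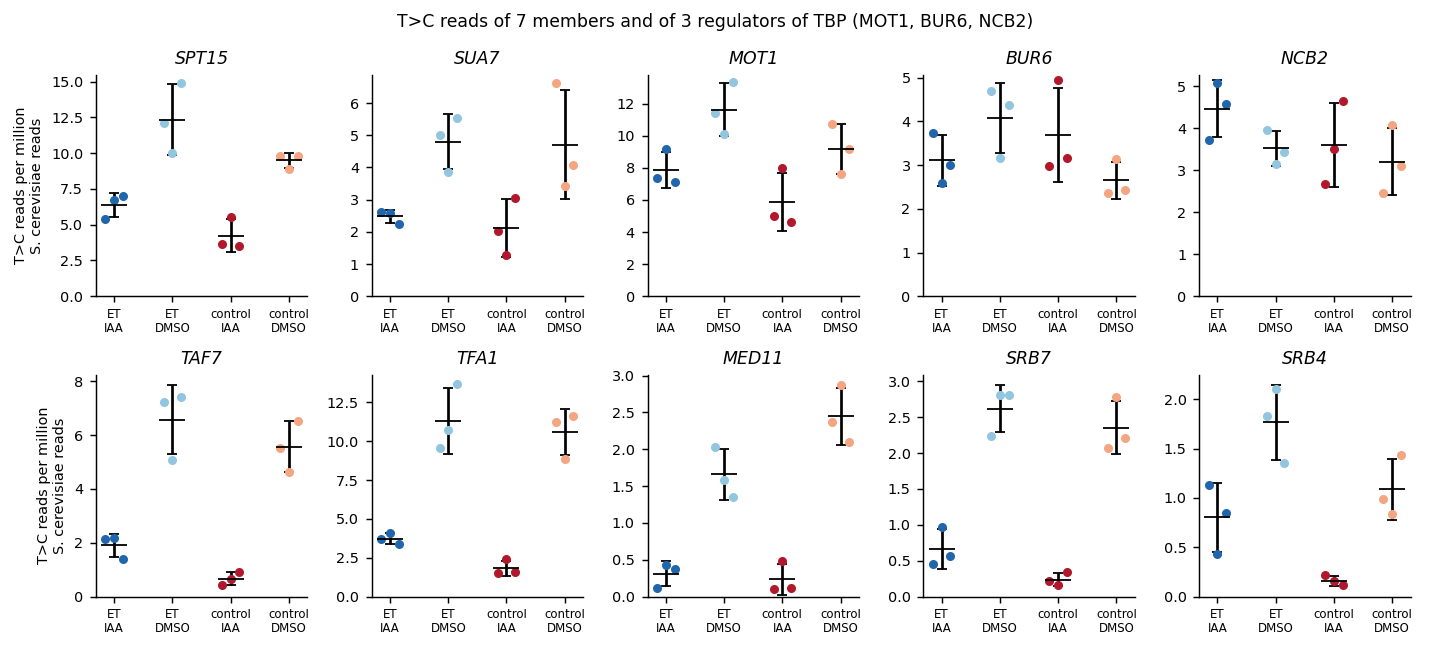
T>C reads for each 1000000 S. cerevisiae reads (y axis, linear, from 0) of 7 members and of MOT1, BUR6 and NCB2, which encode regulators of TBP, in the 4 groups of libraries (x axis), with mean and SD (n = 3). TAF7, TFA1, MED11 and SRB7 lie far below their DMSO level with IAA, SPT15 and SUA7 less so (above 0 in log2 change under TMM), and BUR6 and NCB2 overlap between IAA and DMSO in the control strain.

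The comparison of the strains after depletion asks how far the ET domain holds up transcription without Bdf1 and Bdf2. T>C reads were higher in the ET than in the control strain, both with IAA, for 4 of 36 members (edgeR, adjusted p under 0.05) and lower for none, while 13.3% of all tested genes were higher. The 4 were SRB4 (log2 change 2.20 ± 0.71, adjusted p = 0.024), TAF7 (1.51 ± 0.43, adjusted p = 0.01), TOA1 (1.20 ± 0.41, adjusted p = 0.034) and TFA1 (1.07 ± 0.30, adjusted p = 0.0087), of Mediator, TFIID, TFIIA and TFIIE. The members' share of calls (11.1%) was near that of all genes, and their median was 0.64, against 0.45 over all genes. None of the 4 calls remained with the S. pombe, median of ratios or TMM scaling. With S. pombe reads the members' median was nevertheless 0.67, against 0.48 over all genes. There were 0 calls without control IAA replicate A, 1 without its replicate C and 2 without ET IAA replicate C.

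**Figure D4:**
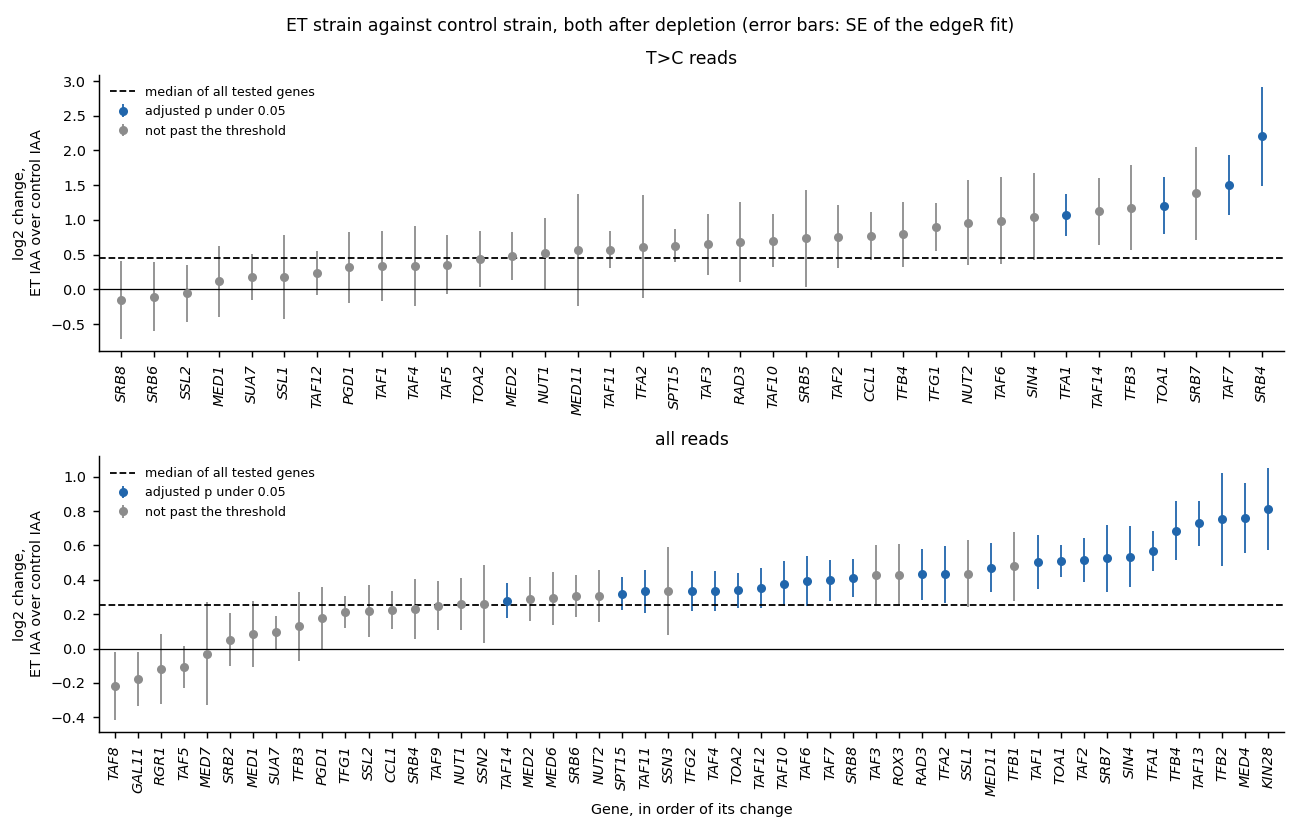
Log2 change between the ET and control strains, both with IAA (y axis), for members tested by T>C reads (upper panel, 36) and by all reads (lower panel, 51), in order of the change, with the SE of the fit. Blue points passed an adjusted p of 0.05 (4 and 25), and the dashed line is the median of all tested genes, 0.45 and 0.25; under median of ratios 0 and 3 passed.

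By the looser rule of at least 1.5-fold and an unadjusted p under 0.05, 9 of 36 members were higher, against 21.3% of all genes. That count was 4 with median of ratios, 3 with TMM, 14 of 54 with zeros allowed and 14 of 42 without control IAA replicate B. The median of all genes was 0.17 with median of ratios, 0.02 with TMM and 0.53 with zeros allowed. With zeros allowed 6 of 54 passed the adjusted threshold, against 9.03%, among them TAF13 (2.68 ± 0.89) and the TFIIH core subunit TFB1 (1.78 ± 0.62). SPT15 (0.63 ± 0.24, adjusted p = 0.053) and SUA7 (0.18 ± 0.33, adjusted p = 0.76) did not pass. SRB6 (-0.10 ± 0.50), SSL2 (-0.05 ± 0.41) and SRB8 (-0.15 ± 0.56) had values under 0.

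Without depletion, the strains did not differ detectably by T>C reads in any of the 36 members (edgeR), while 0.19% of all genes were called. The members' median was 0.23, the same as over all genes. The response to depletion itself was not called different between the strains in any of the 36, against 0.0272% of all genes. With 3 libraries a group, the absence of a call does not show that levels or responses were equal. DESeq2 called none in either comparison. The median of that difference was 0.40, against 0.22 over all genes. For TAF7 the difference in response was 1.27 ± 0.50 (adjusted p = 0.47), for TFA1 0.97 ± 0.36 (adjusted p = 0.44) and for SRB4 1.48 ± 0.84 (adjusted p = 0.62).

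All reads, which count old and new RNA together, gave another readout with more reads behind each gene and 51 testable members. In the control strain all 51 were lower with IAA (edgeR), against 76.2% of 5240 genes, with a median log2 change of -1.48, against -1.17 over all genes. In the ET strain 50 were lower, against 75.1%, with a median of -1.21, against -0.96. The exception was PGD1 (Med3), a tail subunit, at -0.31 ± 0.18 (adjusted p = 0.11). Its interval overlaps those of TRP5 and PIB2 on the same strand, by at most 22 bp. With the replicate letter as a block in the ET strain, all 51 were lower, PGD1 included. Under median of ratios 27 members were lower in each strain, against 31.9% of all genes in the ET strain and 34.7% in the control strain. There 5 and 4 members were higher. The share of all genes called higher is not given here, so these counts say nothing particular about the members. The medians of all genes were then -0.03 and -0.02.

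**Figure D5:**
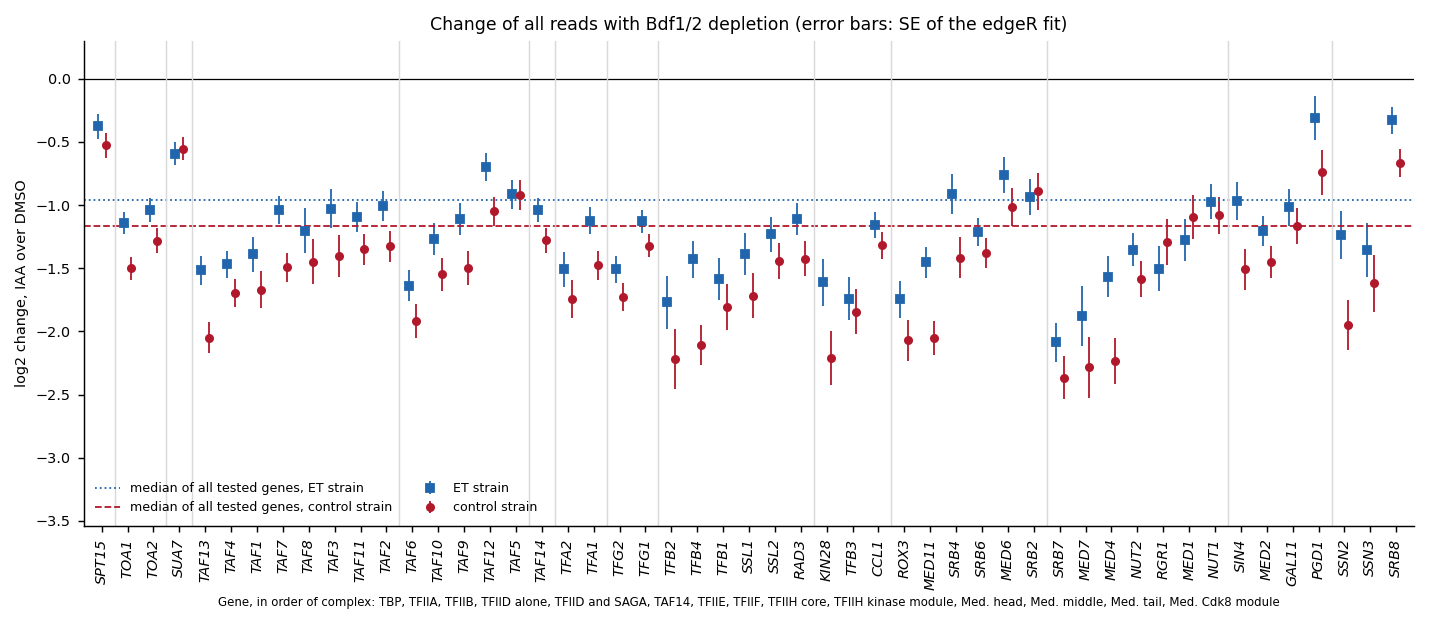
Log2 change of all reads, IAA over DMSO (y axis), for the 51 tested members (x axis, in order of complex) in the ET strain (squares) and the control strain (circles), with the SE of the fit. Lines mark the medians of all tested genes, -0.96 and -1.17. SPT15, SUA7, SRB8 and PGD1 lie near the top. Under median of ratios they are among 8 members above 0 in the ET strain and 10 in the control strain. The medians of all genes are then -0.03 and -0.02.

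SPT15 and SUA7 stood again at the upper end by all reads. SPT15 had 96.8, 112 and 110 RPM in the ET IAA libraries, against 126, 138 and 151 with DMSO. SPT15 in the control strain had 81.8, 91.2 and 83.3 with IAA and 134, 118 and 117 with DMSO. No IAA library overlapped a DMSO library of its strain. For SPT15 this gave a log2 change of -0.38 ± 0.10 (edgeR, adjusted p = 0.00089) in the ET strain and -0.53 ± 0.10 (adjusted p = 2.4e-05) in the control strain, which became 0.55 and 0.62 under median of ratios and 0.47 and 0.49 under TMM.

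SUA7 had 56.5, 57.7 and 62.9 RPM in the ET IAA libraries, against 88.7, 89.6 and 89.0 with DMSO. Its control libraries had 51.1, 59.2 and 55.9 with IAA and 84.6, 76.6 and 82.3 with DMSO, again without overlap. The log2 change was -0.59 ± 0.09 in the ET strain and -0.55 ± 0.09 (edgeR, adjusted p = 6.9e-06) in the control strain, which became 0.33 and 0.60 under median of ratios and 0.25 and 0.47 under TMM. Relative to the median of all genes, SPT15 lay 0.64 and SUA7 0.61 higher in the control strain.

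At the lower end in the control strain stood SRB7 (-2.37 ± 0.17), MED7 (-2.29 ± 0.24) and MED4 (-2.24 ± 0.18) of the Mediator middle and TFB2 (-2.22 ± 0.24) and KIN28 (-2.21 ± 0.21) of TFIIH. SRB7 had 6.11, 8.10 and 8.99 RPM in the ET IAA libraries, against 30.1, 37.5 and 31.5 with DMSO. SRB7 in the control strain had 6.72, 4.78 and 4.53 with IAA and 27.2, 29.8 and 26.7 with DMSO. Its IAA and DMSO libraries lay far apart within each strain, and in the control strain it ranked 133 from the lowest of 5240 genes. KIN28 had 3.85, 5.94 and 4.78 RPM in the ET IAA libraries, against 13.8, 15.3 and 15.5 with DMSO, and 2.56, 2.23 and 3.40 in the control IAA libraries, against 14.6, 12.3 and 11.6 with DMSO.

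Across the 35 members tested in both readouts, the fall was larger in T>C reads than in all reads for 33 in the ET strain and 34 in the control strain. The share of all genes with such a difference was not counted. Their medians were also lower by T>C reads (-1.40 and -1.61) than by all reads (-0.96 and -1.17). Pearson's r between the readouts was 0.63 and 0.75 over the members (Spearman's rho 0.73 and 0.75). Over 3667 genes it was 0.83 and 0.81 (rho 0.82 and 0.81). T>C reads are a part of all reads of the same libraries.

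After depletion, all reads were higher in the ET than in the control strain for 25 of 51 members (edgeR) and lower for none, against 30.4% of all genes, with a median of 0.34, against 0.25. SPT15, TOA1, TOA2, TFA1 and TFA2 were all among the 25, together with 6 of 8 TAFs of TFIID alone, 3 of 5 shared TAFs and 5 of the 20 tested Mediator members. TOA1 had 60.9, 67.5 and 67.2 RPM in the ET IAA libraries, all above the 47.6, 44.9 and 44.9 of the control IAA libraries (0.51 ± 0.09, adjusted p = 0.00076). The largest differences were those of KIN28 (0.81 ± 0.24, adjusted p = 0.013), MED4 (0.76 ± 0.20, adjusted p = 0.0082) and TFB2 (0.75 ± 0.27, adjusted p = 0.035).

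That count of 25 was 8 with S. pombe reads, 3 with median of ratios and 4 with TMM. The medians of all genes were then 0.285, -0.02 and 0.03, and those of the members 0.37, 0.06 and 0.11. The count was 9 and 13 without ET IAA replicates B and C and 11 and 12 without control IAA replicates A and C. Without depletion 0.916% of all genes were called different in all reads and no member was (edgeR). The response was called different in 0.0954% of genes and in no member, which does not show equal responses. DESeq2 gave no member in either.

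The labelled share, the percent of a gene's reads that are T>C reads, does not depend on library scaling. Pooled over the 55 members it was 4.8% ± 0.271 in the ET strain with IAA and 7.37% ± 0.886 with DMSO, and 3.82% ± 0.404 in the control strain with IAA and 6.55% ± 0.224 with DMSO (SD, n = 3 each). The IAA and DMSO libraries did not overlap in either strain. The median gene with at least 10 reads everywhere had 4.02% ± 0.296 with IAA and 6.74% ± 0.680 with DMSO in the ET strain, and 2.97% ± 0.140 with IAA and 5.79% ± 0.210 with DMSO in the control strain. Of the 51 members in that set, 25 to 32 lay above the median gene in each of the 12 libraries. Their median was 4.71% ± 0.411 with IAA and 7.61% ± 0.726 with DMSO in the ET strain, and 3.52% ± 0.310 and 6.35% ± 0.352 in the control strain. In proportion, this fall was no larger than that of the median gene, unlike the fall in T>C RPM.

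Labelled shares differed between the groups of genes. The TFIIH core had 6.79% ± 0.179 in the control strain with IAA and 9.46% ± 1.15 with DMSO, a ratio of 0.718. The Mediator head had 2.26% ± 0.498 and 4.85% ± 0.376, a ratio of 0.467, and TFIIE 4.50% ± 0.634 and 9.09% ± 0.703, a ratio of 0.495. These 2 ratios lay near that of the median gene, with 2.97% ± 0.140 and 5.79% ± 0.210. All 55 members pooled had a ratio of 0.584. SPT15 had 4.92% ± 1.03 and 7.74% ± 0.575. These sums hold few genes, and IAA and DMSO libraries overlapped for TFIIB, TAF14 and the Cdk8 module in the control strain and for TFIIB, TAF14 and the TFIIH kinase module in the ET strain.

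A further list held 11 genes outside the 55 members: SOH1 (Med31), TFB5, TFB6, MOT1, BUR6, NCB2, SUB1, DST1, SPT3, SPT8 and FCP1. None of them is in the sums or member counts above, although SOH1 and TFB5 belong by name to Mediator and TFIIH. By T>C reads 7 were tested, and 5 were lower and none higher in each strain, with medians of -1.49 in the ET strain and -1.11 in the control strain, while 79.6% and 79.7% of all genes were lower. By all reads 10 were tested. Of these 7 were lower and 2 higher in the ET strain, and 8 lower and 2 higher in the control strain. Among all genes 75.1% and 76.2% were lower, and the share called higher is not given here.

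The 2 that were higher encode the subunits of NC2, which binds TBP on DNA and blocks TFIIA and TFIIB. BUR6 had 118, 110 and 124 RPM in the ET IAA libraries, against 74.4, 80.7 and 83.1 with DMSO, and 101, 145 and 112 in the control IAA libraries, against 80.4, 74.2 and 72.0 with DMSO. NCB2 had 134, 133 and 140 RPM in the ET IAA libraries, against 102, 94.3 and 110 with DMSO, and 121, 123 and 127 in the control IAA libraries, against 84.3, 99.7 and 89.4 with DMSO. IAA libraries of both genes lay above the DMSO libraries in each strain. Over all intervals with a read, this held for 6.41% in the ET strain and 6.457% in the control strain. The log2 changes of BUR6 were 0.57 ± 0.11 in the ET strain and 0.66 ± 0.11 (edgeR, adjusted p = 6e-06) in the control strain, and those of NCB2 0.41 ± 0.09 and 0.44 ± 0.09 (adjusted p = 0.0001).

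By T>C reads NC2 did not pass the test when scaled to S. cerevisiae reads, whereas under TMM both subunits were called higher in both strains. BUR6 had 3.73, 2.59 and 3.00 T>C RPM in the ET IAA libraries, against 4.69, 3.16 and 4.38 with DMSO. The log2 change was -0.39 ± 0.28 (edgeR, adjusted p = 0.2), which became 0.54 under median of ratios (adjusted p = 0.098) and 0.92 under TMM (adjusted p = 0.0035). Its control libraries had 2.99, 4.94 and 3.17 with IAA and 2.37, 3.15 and 2.43 with DMSO (0.44 ± 0.30, adjusted p = 0.16). The groups overlapped in both strains. NCB2 had 2.67, 3.50 and 4.64 in the control IAA libraries, against 2.47, 4.07 and 3.09 with DMSO (0.16 ± 0.29, adjusted p = 0.61, and -0.03 with S. pombe reads).

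MOT1, the ATPase that removes TBP from DNA, had 7.36, 9.18 and 7.12 T>C RPM in the ET IAA libraries, against 11.4, 10.1 and 13.3 with DMSO. Its control libraries had 5.02, 7.96 and 4.64 with IAA and 10.8, 7.59 and 9.17 with DMSO, with overlap. For MOT1 this gave a log2 change of -0.56 ± 0.20 (edgeR, adjusted p = 0.0062) in the ET strain and -0.67 ± 0.21 (adjusted p = 0.0024) in the control strain, and it was 0.37 and 0.47 under median of ratios and 0.76 and 0.82 under TMM. MOT1, BUR6 and NCB2 all lay above the 36 members, whose control-strain changes ran from -3.49 to -0.81.

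SPT3, the SAGA subunit that contacts TBP, was lower with IAA in both strains and higher in the ET than in the control strain with IAA (1.64 ± 0.48, edgeR, adjusted p = 0.013). It had 1.36, 1.73 and 1.59 T>C RPM in the ET IAA libraries, against 0.213, 0.637 and 0.680 in the control IAA libraries. SUB1, a coactivator that binds TFIIB, had 0.453, 0.432 and 0.187 in the ET IAA libraries, against 3.57, 3.51 and 4.8 with DMSO (-3.45 ± 0.44), and its control-strain change was -1.55 ± 0.44. The difference between the strains' responses did not pass for SUB1 (-1.90 ± 0.69, adjusted p = 0.44).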

How the data were processed

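Reads had been processed by the authors, who used fastp (version 0.23.2) and bbduk for trimming. SLAM-DUNK (slamdunk version 0.4.3) then counted reads against the S. cerevisiae (R64-3-1) and S. pombe genomes. The deposited tables hold raw counts per gene interval and library: all reads, T>C reads and multimapping reads. Members were matched by systematic name, and all 55 symbols are those of RefSeq; multimapping reads were at most 3.37% of a member's reads. S. pombe cells served as spike-in. Other deposited columns (T coverage and conversions on T) were used only for a conversion rate.

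Counts of T>C reads (at least 1 in every library, 3677 genes) and of all reads (at least 10, 5240 genes) were each fitted with edgeR 4.0.16 (glmQLFit, glmQLFTest) in R 4.3.3 with 4 group means over 12 libraries. Offsets were the sums of S. cerevisiae reads, after the study's scaling to total read counts. P-values were two-sided, Benjamini-Hochberg adjusted over all genes tested, threshold 0.05; standard errors come from the F statistic. The members and lists were chosen with earlier results of these data known. Named were 13 subunits, 1 or more of each complex, and, per contrast, up to 3 members with the largest called change in each direction and on average 10 or more T>C reads; others named in the text were chosen after their values were seen. The alternatives were 3 other scalings, DESeq2 1.42.0, a filter on a sum of 30 reads, the compared groups alone, the replicate letter as a block and each library left out. Exact intervals cover counting error only, and no use of molecular identifiers is stated. The fits were tested on simulated counts.

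Same-letter libraries were checked for pairing. Correlations of their deviations from the group means lay between -0.028 and 0.049 for T>C reads (0.026 to 0.049 within the ET strain, against -0.054 to 0.0054 for different letters). None passed 0.1, so the letters were not taken to pair those libraries. For all reads only the ET pairs were all above 0.1 (0.15 to 0.24), and a fit with the replicate letter as a block in the ET strain was added after seeing the data.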

Additional observations from a re-analysis of the deposited data

How the results depend on the processing

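Counts of T>C members lower in the control strain (35) were 18 with median of ratios, 10 with TMM and 53 with zeros allowed, and in the ET strain (36) 18 and 2. Members higher in the ET strain after depletion (4) were 0 with S. pombe reads, median of ratios and TMM. At 1.5-fold (9 members) they were 4 with median of ratios, 3 with TMM and 14 with zeros allowed. For all reads, members lower in the control strain (51) and in the ET strain (50) were 27 and 27 with median of ratios. Members higher were 4 (control strain) and 5 (ET strain) with median of ratios and 3 and 4 with TMM. The share of all genes called higher is not given here. After depletion the 25 members higher in all reads were 8, 3 and 4 with S. pombe reads, median of ratios and TMM, and 1 was lower with median of ratios. The cause of these shifts was not tested beyond the change of the all-gene median that the report gives.

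Leaving out single libraries gave 33 to 41 and 35 to 42 T>C members lower (control and ET strain), 51 to 54 and 50 to 53 by all reads, 0 to 6 T>C members higher after depletion (0 without control IAA replicate A, 1 without its replicate C, 2 without ET IAA replicate C), 6 to 14 at 1.5-fold and 9 to 30 by all reads. All-read calls between strains were 0 to 1 without depletion and 0 to 2 for the difference in response.

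With the replicate letter as a block, 35 and 36 T>C members were lower and 4 higher after depletion, and by all reads 51, 50 and 20. With the replicate block in the ET strain alone, an alternative chosen after seeing the data, 36 members were lower by T>C reads and 51 by all reads. No call count moved by more than 1.5 times under the replicate block.

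The members above 0 by T>C reads were 6 with TMM and 3 with median of ratios in the control strain and 9 and 0 in the ET strain, and by all reads 7 and 10 in the control strain and 6 and 8 in the ET strain. With TMM the T>C medians of all genes were -0.11 and -0.09 in the control and ET strains. With median of ratios their all-read medians were -0.02 and -0.03. Among the genes followed one by one under every setting, log2 changes that turned positive by T>C reads in the control strain were SPT15 0.30, SUA7 0.41, SRB8 0.37, MED1 0.34, MOT1 0.82 and DST1 0.40 with TMM, and SUA7 0.054, SRB8 0.023, MOT1 0.47 and DST1 0.045 with median of ratios. NCB2 turned to -0.028 with S. pombe reads and to -0.0016 and -0.088 without control DMSO replicate A and control IAA replicate C. In the ET strain they were SPT15 0.38, SUA7 0.37, TFG1 0.086, RAD3 0.034, SRB4 0.15, MOT1 0.76 and BUR6 0.92 with TMM, and MOT1 0.37 and BUR6 0.54 with median of ratios. By all reads in the control strain they were SPT15 0.62, SUA7 0.60, SRB8 0.48, MED1 0.055 and MOT1 0.90 with median of ratios and SPT15 0.49, SUA7 0.47, SRB8 0.35 and MOT1 0.77 with TMM. In the ET strain they were SPT15 0.55, SUA7 0.33, SRB4 0.0071, SRB8 0.59 and MOT1 0.83 with median of ratios and SPT15 0.47, SUA7 0.25, SRB8 0.51 and MOT1 0.75 with TMM. Depth limits the T>C values: 15 of the 55 members had a mean under 10 T>C reads a library.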

Other observations

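The conversion rate, counted over all T positions covered by reads, gave the same order of groups as the labelled share. Over the 55 members it was 3.48 ± 0.186 T>C conversions per 1000 covered T in the ET strain with IAA and 5.46 ± 0.726 with DMSO, and 2.74 ± 0.325 in the control strain with IAA and 4.78 ± 0.147 with DMSO (SD, n = 3 each). Over all S. cerevisiae intervals it was 1.18 ± 0.0666 with IAA and 2.15 ± 0.212 with DMSO in the ET strain, and 0.904 ± 0.0477 with IAA and 1.81 ± 0.0388 with DMSO in the control strain. The members held 0.354% ± 0.00337 of all T>C reads in the ET strain with IAA, against 0.644% ± 0.0306 with DMSO, and 0.287% ± 0.0210 in the control strain with IAA, against 0.640% ± 0.0536 with DMSO.

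Reads of BDF1 itself in the ET strain can include those of the construct, which carries the ET domain and the BDF1 terminator. BDF1 had 38.0, 40.0 and 46.3 T>C RPM in the ET IAA libraries, against 6.94, 6.69 and 7.82 in the control IAA libraries (log2 change 2.53 ± 0.16, edgeR, adjusted p = 6e-47). With depletion, T>C reads of BDF1 changed by -0.02 ± 0.18 (adjusted p = 0.93) in the control strain and those of BDF2 by -0.22 ± 0.17 (adjusted p = 0.22). The degrons act on the proteins, so that neither value measures depletion.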
